A study of Mus musculus with 26 samples.

Results

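The comparison described here set YFP-positive against YFP-negative liver cells of Foxl1-Cre; RosaYFP mice fed DDC for 14 days. Its members were chosen by their sample titles, and 5 of the 20 arrays with a scanner file belonged to it, 2 from YFP-positive and 3 from YFP-negative samples. The labels list 3 samples for each day 14 fraction, and the third YFP-positive sample is not analysed here. DDC is a diet compound that disturbs heme synthesis, blocks small bile ducts and calls forth a ductular reaction. The mice were 6 to 10 weeks old offspring of a Foxl1-Cre and a Rosa26 YFP reporter line, so that every cell in which the Cre had once been active kept the YFP. Both fractions came from the non-parenchymal cells of the liver after CD45-bearing cells had been set aside. All day 14 mice, whichever fraction was taken, carried both transgenes and had the same diet for the same time. The labels do not say whether a sample came from 1 animal or a pool, nor whether samples of a group came from separate animals, so the p-values measure the spread between these samples. The YFP marks a history of Cre activity and not a present state of the cell. The levels of Foxl1 and of the reporter itself are not analysed here. The same contrast at day 3 (4 against 3 arrays) and day 7 (3 against 3 arrays) and 2 arrays of unsorted cells from chow-fed mice completed the model.

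Injured liver contains a ductular reaction of cells that carry keratins and junction proteins of bile duct epithelium, and Foxl1, a winged helix transcription factor, is known as a marker of such cells in mouse liver injury. They lie beside stellate cells and portal fibroblasts, the mesenchymal cells that make collagen when the liver scars. Epithelial cells hold to each other through cadherins, claudins and desmosomes, while mesenchymal cells are known by fibrillar collagens, platelet-derived growth factor receptors and, in quiescent stellate cells, the enzymes of vitamin A storage.

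A level below is the log2 signal of a probe minus the 75th percentile of its array, and a difference is the YFP-positive mean minus the YFP-negative mean of such levels. Between 81.8% and 87.3% of the spots of the 5 arrays were well above background. The lowest level of any probe well above background lay between −8.13 and −7.44 on these arrays, and levels below that are values that the scanner software assigned to dim spots. A difference with 1 YFP-positive array not well above background, as for Rspo1, Col15a1, Ccdc3, Upk3b, Mmrn1, Gas1, Bmp5, Hal and Aurkb, rests in part on a dim spot. For Rspo1 both YFP-positive levels (−7.53 and −6.23) still lay above the lowest such level of their arrays (−7.86 and −7.44). The 2 YFP-positive arrays correlated with each other at 0.89 across genes, and with the YFP-negative arrays at 0.861 to 0.904, while the YFP-negative arrays correlated with each other at 0.926 to 0.951. The 2 YFP-positive arrays were therefore no more alike than arrays of opposite fractions. No slide held arrays of both day 14 fractions, so no difference could be taken within a slide, and the parts of slide and fraction in it cannot be told apart from these arrays alone.

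At day 14, 6 of 26665 genes passed limma's moderated test after the Benjamini-Hochberg adjustment, 0.0225% of those tested, and all 6 were lower in YFP-positive cells. The background at an unadjusted p under 0.05 was 3276 genes, 12.3% of all, with 2158 higher (8.09%) and 1118 lower (4.19%). The list counts given below at that p-value are to be read beside these shares. Of the 6 genes that passed, Epha3, Rspo1 and Plcb1 have names, and the other 3 are known in the files only by clone or sequence identifiers.

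Epha3, an ephrin receptor tyrosine kinase of mesenchymal cells, was read by a probe at chr16:63545155-63545214 of mm9. Its levels were −10 and −9.72 in YFP-positive cells, against −0.09, −0.81 and −0.29 in YFP-negative cells. Neither YFP-positive array was well above background for Epha3, and all 3 YFP-negative arrays were. The fall is therefore given as a bound, with the dim array set to its lowest signal well above background. By this bound Epha3 was at least 153-fold lower in YFP-positive cells. The bound itself was not tested. The test was of the fitted log2 difference of −9.46 ± 1.41 (SE), which uses the assigned values (limma, adjusted p = 0.0463). Of the other 2 Epha3 probes, 1 had the same sign.

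Rspo1, the secreted R-spondin that strengthens Wnt signals and is known in the liver from mesothelial and stellate cells, was read at chr4:124686270-124686329. Its levels were −7.53 and −6.23 in YFP-positive cells and 0.92, −0.30 and 0.60 in YFP-negative cells. The fractions lay far apart, and 1 of the 2 YFP-positive arrays was well above background. Rspo1 fell by 7.29 ± 1.13 on the log2 scale (SE), 156-fold in the fit (limma, adjusted p = 0.0463). No other probe of Rspo1 was kept.

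Plcb1, a phospholipase C that acts behind G protein-coupled receptors, was read at chr2:135190506-135190565 and was well above background on all 5 arrays. It had levels of −2.73 and −3.90 in YFP-positive cells, against 0.38, −0.21 and 0.30 in YFP-negative cells. Plcb1 fell by 3.47 ± 0.53 on the log2 scale, 11.1-fold (limma, adjusted p = 0.0463), and its 3 other probes were lower as well. These calls stood close to the threshold, and 0 genes passed after quantile normalization, after normexp background correction or without YFP-negative array 1 or 3. They numbered 24 without YFP-positive array 1 and 48 without YFP-positive array 2, with 2 and 3 of the 6 genes among them, and 2 without YFP-negative array 2.

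The remaining 12 of the 15 named genes lower in YFP-positive cells had adjusted p-values between 0.0721 and 0.093 and did not pass. Col5a1, a fibrillar collagen chain, had levels of −3.44 and −3.48 in YFP-positive cells and 3.35, 2.36 and 3.36 in YFP-negative cells. Esr1, the estrogen receptor alpha, had −2.52 and −3.17 in YFP-positive cells and −0.01, −0.51 and 0.08 in YFP-negative cells. Loxl1, which crosslinks elastin, was at −6.56 and −7.29 in YFP-positive cells and −1.18, −2.74 and −1.51 in YFP-negative cells. For each of these the fractions did not overlap, which the rule that named them required. The differences were −6.48 ± 1.09 for Col5a1, −2.70 ± 0.46 for Esr1 and −5.11 ± 0.90 for Loxl1 (SE). The 1 other probe of Col5a1 had the opposite sign.

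Col15a1 and Col6a3, a basement membrane collagen and a microfibrillar collagen chain, differed by −6.95 ± 1.23 and −6.58 ± 1.24, and Ccdc3 by −6.85 ± 1.21. Col2a1, the collagen of cartilage, differed by −4.10 ± 0.79, with its 1 other probe opposite in sign. Ednra, the endothelin receptor of contractile cells, was below background on both YFP-positive arrays, which had −9.02 and −8.17, against 0.23, −0.32 and −0.08 in YFP-negative cells. It was at least 193-fold lower in YFP-positive cells. The test was not of this bound but of the fitted difference of −8.54 ± 1.6 (limma, adjusted p = 0.0904). Under the same bound, Islr, a secreted protein of mesenchymal cells, was at least 229-fold lower, Fgl2, a fibrinogen-like protein, at least 59.6-fold, Rab40b at least 27.9-fold and Ripor2 at least 22.4-fold lower, and none of them passed. Of the 3 other probes of Ripor2, 2 had the same sign.

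The 15 named genes higher in YFP-positive cells did not pass either, with adjusted p-values from 0.0721 to 0.167. Hpcal4, a calcium sensor known from neurons, had levels of −2.65 and −6.07 in YFP-positive cells, against −10.14, −10.27 and −9.38 in YFP-negative cells, where no array was well above background. It was at least 13.2-fold higher in YFP-positive cells. Gprin1, which interacts with G proteins in growing neurites, had 0.79 and −4.43 in YFP-positive cells, against −7.73, −9.90 and −8.80 in YFP-negative cells, and was at least 72-fold higher. For Hpcal4 and Gprin1 YFP-positive array 1 stood well above array 2.

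Il11, a cytokine of the interleukin 6 family, had levels of −3.25 and −1.51 in YFP-positive cells and −6.47, −5.46 and −5.92 in YFP-negative cells, a difference of 3.57 ± 0.69. Llgl2, a basolateral polarity protein of epithelia, had −0.92 and −0.19 in YFP-positive cells and −3.25, −3.87 and −3.56 in YFP-negative cells. Galnt12, which starts the mucin type of O-glycosylation, had −0.02 and −0.68 in YFP-positive cells, against −3.78, −5.19 and −2.66 in YFP-negative cells. For all 3 genes every YFP-positive array was above every YFP-negative one, which the rule that named them required. Llgl2 differed by 3.01 ± 0.67 and Galnt12 by 3.52 ± 0.69.

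The other named genes on the higher side were Syt14, a synaptotagmin, at 3.32 ± 0.64, Elmod1 at 3.86 ± 0.81, Nat8, an acetyltransferase known from kidney and liver, at 2.62 ± 0.57 and Plk5, of the polo-like kinase family, at 2.74 ± 0.60. Olfr1441, an olfactory receptor gene, differed by 4.05 ± 0.90, Tonsl, a DNA replication repair protein, by 2.60 ± 0.58, and Prap1 by 2.54 ± 0.58. Slc5a9, a sugar transporter, differed by 6.23 ± 1.42, Taf7l, a gene known from male germ cells, by 4.15 ± 0.96, and Ildr1, a protein of tricellular junctions, by 6.07 ± 1.40. On 2 of 3 YFP-negative arrays each, Slc5a9, Taf7l and Ildr1 were well above background. YFP-positive array 1 also stood well above array 2 for Olfr1441 (−1.07 and −4.49), Taf7l (−1.69 and −5.22) and Plk5 (−0.8 and −2.95). Array 2 was the higher for Syt14 (−2.37 and −0.43) and Elmod1 (−2.92 and −1.04). The 1 other probe of Ildr1 was opposite in sign.

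**Figure D1:**
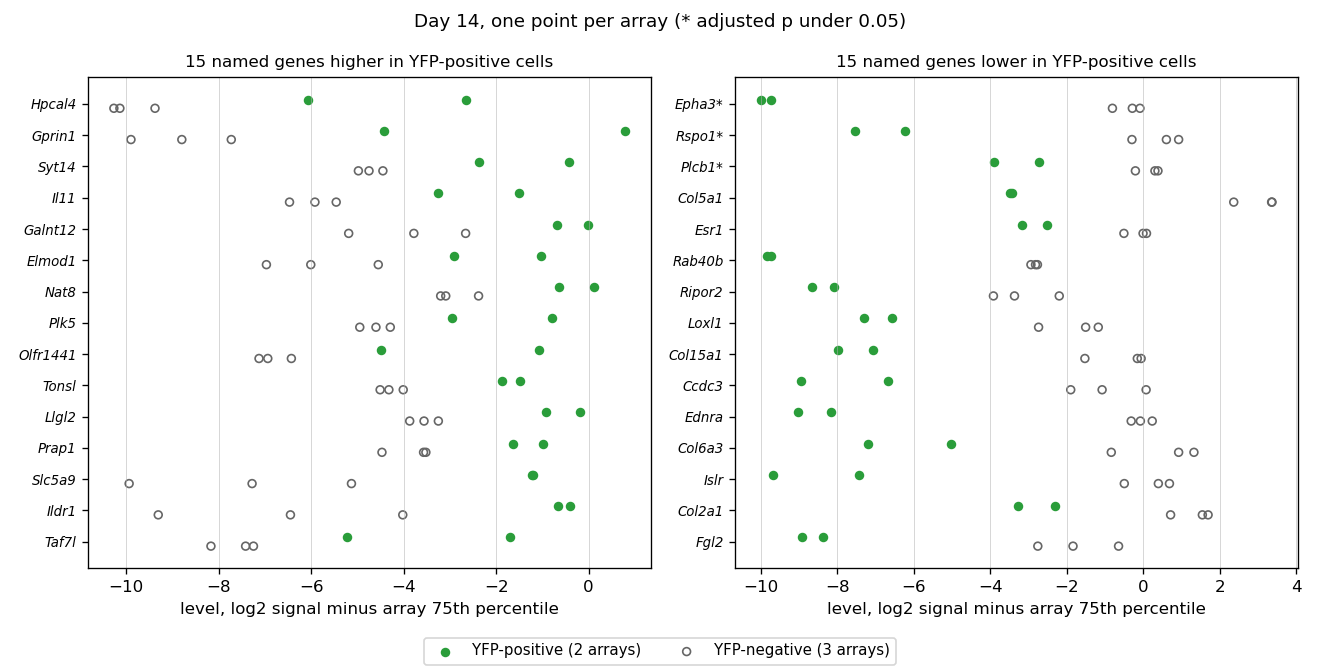
Levels (log2 signal minus the 75th percentile of the array) of the 30 named genes on each day 14 array, YFP-positive arrays as filled green points above the open YFP-negative points of the same gene. Epha3 lies at −10 and −9.72 on the YFP-positive arrays, against −0.81 to −0.09 on the YFP-negative ones, and the 2 YFP-positive arrays lie far apart for Gprin1 (0.79 and −4.43).

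Matrix genes of fibroblasts showed the widest gap among the 26 gene lists examined. Of 26 genes measured, 24 were lower in YFP-positive cells and 17 at an unadjusted p under 0.05, with 0 past the adjusted threshold. Their median difference was −4.06, against 0.13 over all genes, and −4.06 as well with Islr at its bound. The arrays of the fractions did not overlap on the lower side for 22 of the 26, where 13.6% of all genes behaved so. In bulk RNA, fewer cells of a type and less RNA per cell cannot be told apart.

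Col1a1, the chief fibrillar collagen chain of scar tissue, had levels of −7.66 and −6.10 in YFP-positive cells and 2.76, 1.45 and 2.41 in YFP-negative cells. Its difference was −9.08 ± 1.87 (limma, adjusted p = 0.116), and both other probes had the same sign. Averaged over the 26 genes, the levels were −3.72 and −2.47 on the YFP-positive arrays, against 1.35, 0.38 and 0.99 on the YFP-negative arrays. Both YFP-positive arrays lay below all 3 YFP-negative arrays. With YFP-positive array 1, 22 of the 26 genes were well above background, and with array 2 it was 25, so most matrix probes still gave signal in YFP-positive cells.

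Stellate cell genes followed the same direction, with 15 of 18 lower in YFP-positive cells and a median of −2.58. At an unadjusted p under 0.05, 9 were lower and 1 higher, against 4.19% and 8.09% of all genes. Lrat, which esterifies retinol for storage, had levels of −1.35 and −2.11 in YFP-positive cells, against 2.59, 1.57 and 1.62 in YFP-negative cells (difference −3.66 ± 0.80, limma, adjusted p = 0.137). Reln, a secreted glycoprotein of stellate cells, had −5.19 and −0.58 in YFP-positive cells and 3.24, 1.99 and 2.94 in YFP-negative cells. For Lrat and Reln the fractions did not overlap, and for Reln the YFP-positive arrays were far apart.

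The platelet-derived growth factor receptors were spread in the same way as Reln. Pdgfra had levels of −4.79 and −0.65 in YFP-positive cells and 2.10, 0.91 and 1.92 in YFP-negative cells. Pdgfrb had −5.98 and −0.53 in YFP-positive cells and 2.82, 1.22 and 2.44 in YFP-negative cells. Their differences were −4.36 ± 1.22 and −5.41 ± 2.07, neither past the threshold, and array 1 was the lower YFP-positive array for both. Over the 18 stellate genes the mean levels were −2.77 and −0.84 on the YFP-positive arrays, against 1.46, 0.46 and 0.79 on the YFP-negative arrays. Gfap, an intermediate filament protein used as a stellate marker in rodents and named here after its values were seen, differed the other way by 1.70 ± 0.66 (unadjusted p = 0.0205).

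Smooth muscle and contractile genes lay on both sides. Of 13 genes, 6 were higher and 7 lower in YFP-positive cells, with a median of −0.31 that changed sign in 1 of 16 alternative settings. Of these, 0 were higher and 4 lower at an unadjusted p under 0.05, against 8.09% and 4.19% of all genes. Tagln and Myl9, an actin-binding protein and a myosin light chain of smooth muscle, differed by −2.86 ± 0.78 and −3.16 ± 1.17. Lmod1 and Myh11, a leiomodin and the smooth muscle myosin heavy chain, differed by −3.45 ± 1.23 and −2.27 ± 1.02, and none of the 4 passed. Acta2, smooth muscle actin and the usual marker of activated stellate cells, had levels of 4.32 and 4.36 in YFP-positive cells, against 3.97, 4.06 and 4.24 in YFP-negative cells. Its difference was 0.25 ± 0.35 with this probe, all 4 other Acta2 probes had the opposite sign, and the mean over the probes of the gene gave −1.81.

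Mesothelial genes, which mark the sheet of cells over the liver surface, also lay on both sides, though most of those at an unadjusted p under 0.05 were lower. Besides Rspo1, which fell, Bnc1 and Lrrn4 were below background on both YFP-positive arrays and well above it on all 3 YFP-negative arrays. Bnc1, a zinc finger protein, was at least 5.81-fold and Lrrn4 at least 26.7-fold lower in YFP-positive cells. Upk3b, a uroplakin, differed by −4.13 ± 1.52. In contrast, Msln, the mesothelin named after such cells, had levels of 2.27 and 3.04 in YFP-positive cells and 1.41, 0.25 and 1.73 in YFP-negative cells, a difference of 1.53 ± 1.29. Of the 11 genes 5 were lower at an unadjusted p under 0.05, 1 was higher (Krt19, which bile duct cells share), and 6 were lower in all.

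**Figure D2:**
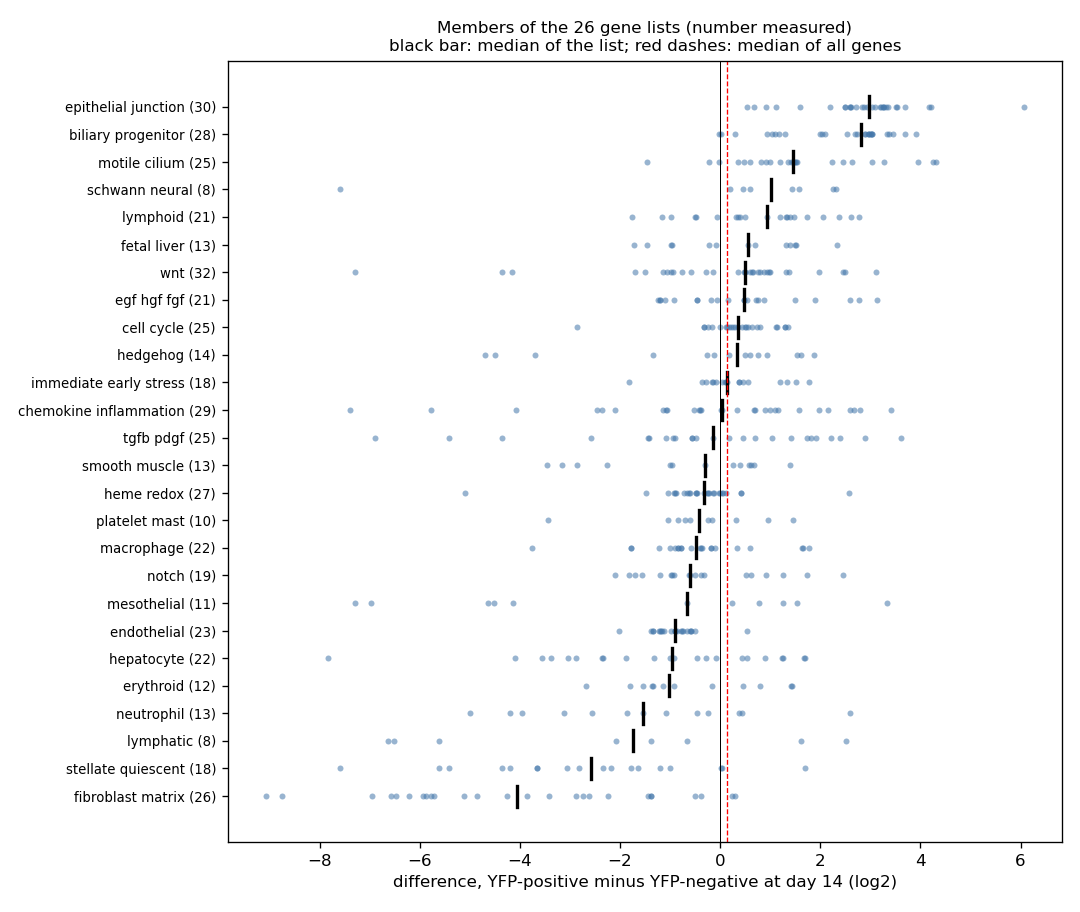
Difference between the fractions (YFP-positive minus YFP-negative, log2) of each measured member of the 26 lists, with the list median as a black bar and the median of all genes (0.13) as red dashes. Fibroblast matrix (median −4.06) and stellate genes (−2.58) lie at the lower end, and epithelial junction (2.98) and biliary genes (2.82) at the upper end.

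Genes of bile duct epithelium and liver progenitors were higher in YFP-positive cells for 27 of 28 members, 11 of them at an unadjusted p under 0.05 and 0 past the adjusted threshold. Their median difference was 2.82. For 22 of the 28, every YFP-positive array was above every YFP-negative array, which held for 20.5% of all genes. Mean levels over the list were 1.79 and 1.91 on the YFP-positive arrays, against −1.12, −0.94 and 0.70 on the YFP-negative arrays, where array 3 was the highest.

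Krt19, the keratin of bile duct cells, had levels of 3.02 and 2.58 in YFP-positive cells and −1.64, −0.84 and 0.89 in YFP-negative cells, a difference of 3.34 ± 1.51 (limma, adjusted p = 0.396). Cftr, the chloride channel of the bile duct surface, had 1.46 and 1.61 in YFP-positive cells, against −2.34, −1.85 and 0.11 in YFP-negative cells. Tesc, the calcium-binding tescalcin, had 2.84 and 3.81 in YFP-positive cells, against −1.93, −0.65 and 1.45 in YFP-negative cells. In each case YFP-negative array 3 came nearest to the YFP-positive arrays, and Krt19 was well above background on all 5 arrays. The difference was 2.90 ± 0.95 for Cftr and 3.70 ± 1.28 for Tesc. St14, the membrane protease matriptase, differed by 3.91 ± 1.43, and Ehf, an epithelial transcription factor of the ETS family, by 2.70 ± 0.99.

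Genes of epithelial junctions, cell polarity and their regulators were higher in YFP-positive cells for 30 of 30 members, 15 at an unadjusted p under 0.05, with a median of 2.98 and again 0 past the adjusted threshold. For 26 of the 30 the arrays of the fractions did not overlap, against 20.5% of all genes on the higher side. Of all genes, 8.09% were higher at an unadjusted p under 0.05. Cdh1, the epithelial cadherin, had levels of 2.36 and 2.73 in YFP-positive cells, against −1.84, −0.99 and 1.18 in YFP-negative cells. Cldn4, a tight junction claudin, had 2.01 and 2.16 in YFP-positive cells and −3.30, −3.82 and 0.74 in YFP-negative cells. Pkp3, a desmosomal plakophilin, had 1.79 and −0.52 in YFP-positive cells and −2.69, −4.11 and −2.39 in YFP-negative cells. All 3 genes were higher on every YFP-positive array, by 3.09 ± 1.37 for Cdh1, 4.21 ± 1.45 for Cldn4 and 3.70 ± 1.03 for Pkp3. Cldn3, another claudin, differed by 3.35 ± 1.18.

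The promoter windows of junction and biliary genes were searched because most members of both lists were higher in YFP-positive cells. The windows are 300 bases long and run across the start of each gene, from RefSeq on GRCm38.p6, and a gene with several windows counted once if any window matched. A grainyhead motif, AACCNGTT read on both strands, was present for 2 of the 18 junction genes with a window (11.1%), against 2.35% of 27025 genes. An HNF1 motif, GTTAATNAT on both strands, was present for 1 of the 18 biliary genes with a window (5.56%), against 0.94% of the same genes. The 3 windows follow, 5′ to 3′ on the strand of the gene, with the matched bases in capitals, and a match describes letters and not binding. Cgn, cingulin of the tight junction, lies at chr3:94786433-94786732 on the minus strand, Rab25, a vesicle GTPase of epithelia, at chr3:88548230-88548529 on the minus strand, and Pkhd1, the fibrocystin of the bile duct cilium, at chr1:20618008-20618307 on the minus strand.
Cgn: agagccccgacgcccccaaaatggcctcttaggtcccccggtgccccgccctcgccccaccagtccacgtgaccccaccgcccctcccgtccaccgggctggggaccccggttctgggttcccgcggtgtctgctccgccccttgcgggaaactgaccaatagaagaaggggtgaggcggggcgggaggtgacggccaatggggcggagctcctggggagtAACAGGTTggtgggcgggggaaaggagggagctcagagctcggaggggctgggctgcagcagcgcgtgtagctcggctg
Rab25: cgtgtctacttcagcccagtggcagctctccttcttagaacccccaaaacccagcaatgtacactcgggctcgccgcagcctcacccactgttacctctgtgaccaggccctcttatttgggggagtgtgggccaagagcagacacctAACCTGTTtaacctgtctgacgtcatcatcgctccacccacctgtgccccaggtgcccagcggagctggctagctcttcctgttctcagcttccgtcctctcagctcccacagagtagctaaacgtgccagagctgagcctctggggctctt
Pkhd1: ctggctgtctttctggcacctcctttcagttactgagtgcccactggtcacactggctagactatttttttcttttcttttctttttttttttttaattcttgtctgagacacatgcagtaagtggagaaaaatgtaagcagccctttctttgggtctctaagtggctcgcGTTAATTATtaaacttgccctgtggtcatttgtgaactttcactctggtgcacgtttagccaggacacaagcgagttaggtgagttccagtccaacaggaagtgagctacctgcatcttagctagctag
Counted from the start of the gene, the first matched base stood at −29 for Cgn, −102 for Rab25 and −79 for Pkhd1. In the arrays Cgn differed by 3.27 ± 1.37, Rab25 by 2.83 ± 1.57 and Pkhd1 by 3.38 ± 1.60, all higher in YFP-positive cells and none past the threshold. These 3 genes were chosen for their motifs.

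Genes of the motile cilium, the beating kind that bile duct cells are not known for, were higher in YFP-positive cells for 22 of 25 members. Of these, 7 were higher at an unadjusted p under 0.05, against 8.09% of all genes. The median was 1.46, or 1.42 with 1 gene at its bound. Foxj1, the transcription factor that switches on motile cilia, had levels of 3.31 and 3.40 in YFP-positive cells, against −3.29, −0.76 and 1.13 in YFP-negative cells. Dnali1, a light intermediate chain of axonemal dynein, had 1.12 and 0.36 in YFP-positive cells, against −3.73, −4.48 and −2.33 in YFP-negative cells. Both genes were well above background on all 5 arrays, and the fractions did not overlap. The differences were 4.32 ± 1.62 for Foxj1, 4.25 ± 1.09 for Dnali1, 2.64 ± 0.88 for Pifo, a protein of ciliary disassembly, and 3.96 ± 1.47 for Fank1, a gene known from testis whose 1 other probe was opposite in sign (limma, adjusted p from 0.238 to 0.353).

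**Figure D3:**
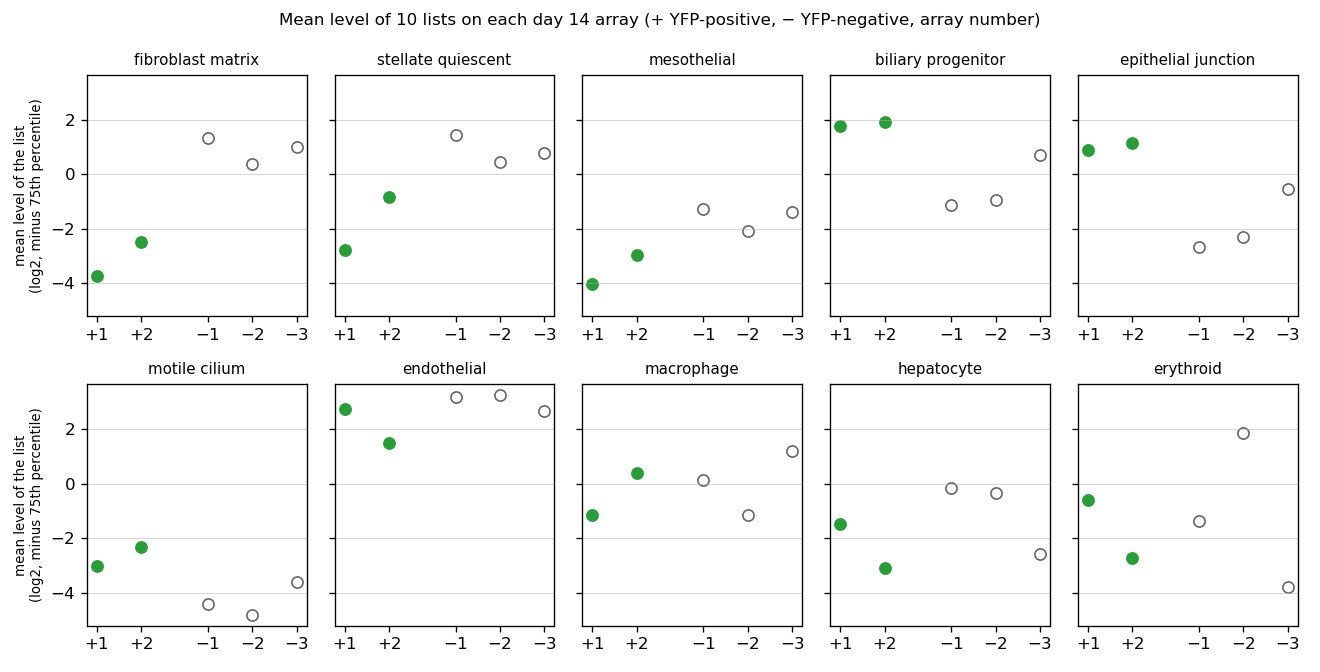
Mean level of 10 lists (log2 signal minus the 75th percentile) on each day 14 array, YFP-positive arrays 1 and 2 filled and to the left of YFP-negative arrays 1 to 3. The YFP-positive arrays are apart from all YFP-negative arrays for the fibroblast, stellate, mesothelial, biliary, junction and motile cilium lists, YFP-negative array 3 has the highest biliary mean of its fraction (0.70), and YFP-negative array 2 has the highest erythroid mean (1.88).

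Chemokines and inflammatory signals held members at both ends, 16 higher and 13 lower of 29, with a median of 0.03 that changed sign in 2 of 16 settings. Ccl19, which draws lymphocytes to stromal zones, had levels of −6.12 and −4.45 in YFP-positive cells and 2.71, 1.02 and 2.59 in YFP-negative cells. Cxcl12, a stromal chemokine, had 1.66 and 2.16 in YFP-positive cells and 4.46, 4.00 and 4.36 in YFP-negative cells. Ccl20, an epithelial chemokine, had −0.24 and −1.04 in YFP-positive cells and −3.11, −2.67 and −2.60 in YFP-negative cells. The fractions did not overlap for any of these, and the differences were −7.39 ± 1.83 for Ccl19, −2.37 ± 0.61 for Cxcl12 and 2.15 ± 0.71 for Ccl20. Cxcl14 differed by −4.08 ± 1.24 and Il1rn, the interleukin 1 receptor antagonist, by 3.41 ± 1.05. Of the list, 5 were higher and 4 lower at an unadjusted p under 0.05, against 8.09% and 4.19% of all genes. None passed the adjusted threshold (limma, adjusted p of the 5 genes named here from 0.223 to 0.341).

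In the list of EGF, HGF and FGF genes 12 of 21 were higher in YFP-positive cells, as were 14782 of 26665 genes in all, with a median of 0.47. At an unadjusted p under 0.05, 3 were higher and 0 lower, against 8.09% and 4.19% of all genes. Met, the receptor of hepatocyte growth factor, had levels of 2.12 and 1.93 in YFP-positive cells and −1.44, −1.13 and 0.89 in YFP-negative cells. Fgfr4, a fibroblast growth factor receptor that restrains bile acid synthesis in hepatocytes, had 0.02 and 0.72 in YFP-positive cells and −2.69, −3.70 and −1.93 in YFP-negative cells. Neither overlapped between the fractions. Met differed by 2.59 ± 0.89, Fgfr4 by 3.14 ± 0.90 and Erbb3, a receptor for neuregulins, by 2.77 ± 1.04, with all other probes of these genes on the same side. Egfr, the receptor of epidermal growth factor, had −1.48 and 1.18 in YFP-positive cells, against −1.65, −2.39 and −0.91 in YFP-negative cells, which overlapped.

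In the list of TGF-beta, BMP and PDGF genes, 12 of 25 were higher and 13 lower, and its median of −0.14 changed sign in 7 of 16 alternative settings. Of these, 3 were higher and 5 lower at an unadjusted p under 0.05, against 8.09% and 4.19% of all genes. Bmp5, a bone morphogenetic protein, had levels of −8.43 and −2.95 in YFP-positive cells, against 1.5, 0.58 and 1.52 in YFP-negative cells. Bmp5 differed by −6.89 ± 1.82 and Ltbp1, which stores latent TGF-beta in the matrix, by −2.58 ± 0.95. Tgfb1 itself differed by −0.14 ± 0.90.

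Wnt pathway genes held the 1 list member that passed, Rspo1. Of 32, 19 were higher and 13 lower, with a median of 0.50 that changed sign in 2 of 16 settings. At an unadjusted p under 0.05, 5 were higher and 4 lower, against 8.09% and 4.19% of all genes. Sfrp1, a secreted Wnt inhibitor of mesenchyme, had levels of −6.24 and −4.08 in YFP-positive cells, against −0.94, −2.40 and 0.31 in YFP-negative cells. Znrf3, the ubiquitin ligase that clears Wnt receptors and on which R-spondins act, had −3.08 and −1.98 in YFP-positive cells, against −5.26, −6.20 and −3.62 in YFP-negative cells. Thus Rspo1 and Sfrp1 were at lower levels and Znrf3 at a higher level on every YFP-positive array. The differences were −4.15 ± 1.15 for Sfrp1, 2.49 ± 0.93 for Znrf3 and 1.97 ± 0.74 for the ligand Wnt6. Axin2, a target that follows canonical Wnt signalling, differed by −0.59 ± 0.87.

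Hedgehog genes held members at both ends. At an unadjusted p under 0.05, 2 of 14 were higher and 3 lower, against 8.09% and 4.19% of all genes. Ihh, a ligand, had levels of −3.47 and −2.69 in YFP-positive cells and −4.03, −6.16 and −4.69 in YFP-negative cells. Ihh differed by 1.88 ± 0.66 and Gli1, a transcription factor and a target of the pathway, by 1.62 ± 0.65. The coreceptor Cdon differed by 1.54 ± 0.76, with its 1 other probe opposite in sign. On the lower side stood Gas1, also a coreceptor, at −4.49 ± 1.26, Gli3, also a transcription factor, at −4.70 ± 1.67 and Hhip, a decoy receptor, at −3.70 ± 1.46. None of the 6 passed, and Gli1 and Cdon were named after their values were seen. Shh was well above background on 1 array of each fraction and differed by −0.26 ± 2.48. Of 14 genes 8 were higher and 6 lower, and the median of 0.33 changed sign in 1 of 16 settings. By the authors' deposited table, 7 were higher and 7 lower, with a median of −0.24.

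In the Notch list, 6 of 19 were higher and 13 lower, with a median of −0.60. Of these, 2 were higher and 1 lower at an unadjusted p under 0.05, against 8.09% and 4.19% of all genes. Notch1, a receptor that endothelium carries, had levels of 2.08 and 1.53 in YFP-positive cells and 2.78, 2.81 and 2.60 in YFP-negative cells. Notch2, the receptor known for bile duct formation, had 3.57 and 4.51 in YFP-positive cells and 1.92, 1.88 and 3.14 in YFP-negative cells. The differences were −0.93 ± 0.67 for Notch1 and 1.73 ± 0.78 for Notch2. The arrays did not overlap for either, as for 13.6% of all genes on the lower and 20.5% on the higher side. Jag2, a ligand, differed by 2.45 ± 0.88 and Rfng, a glycosyltransferase that modifies Notch, by −1.83 ± 0.48, and none of them passed.

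Endothelial markers were lower in YFP-positive cells for 22 of 23, with a median of −0.90 and 0 at an unadjusted p under 0.05. All 23 were well above background on all 5 arrays. Their mean levels were 2.75 and 1.49 on the YFP-positive arrays and 3.18, 3.25 and 2.69 on the YFP-negative arrays, and Pecam1 had 3.17 and 2.10 in YFP-positive cells and 3.65, 3.94 and 3.81 in YFP-negative cells. The part of endothelial RNA in the other differences was not tested. Of 8 lymphatic genes 6 were lower, and 3 at an unadjusted p under 0.05. Ccbe1, a secreted factor for lymphatic growth, was at least 57.4-fold lower in YFP-positive cells, Mmrn1 differed by −6.64 ± 1.90, and Prox1, which hepatocytes and bile duct cells also express, by 1.61 ± 1.08.

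The CD45 gene Ptprc, by which cells were set aside, was well above background on all 5 arrays, at −2.60 and −1 in YFP-positive cells and −0.90, −1.73 and 0.75 in YFP-negative cells. Macrophage markers were lower for 17 of 22 with a median of −0.49 that changed sign in 2 of 16 settings, and their mean levels overlapped at −1.15 and 0.40 in YFP-positive cells and 0.16, −1.14 and 1.20 in YFP-negative cells. Adgre1, a surface receptor of macrophages, differed by −0.79 ± 2.36. Neutrophil markers were lower for 10 of 13, with a median of −1.54 that changed sign in 1 setting, and S100a8 at −1.86 ± 2.92. Lymphoid markers were higher for 15 of 21 with a median of 0.93, and 3 were so at an unadjusted p under 0.05, against 8.09% of all genes. The 3 were Cd4 at 1.20 ± 0.44, the B cell gene Cd79a at 1.74 ± 0.70 and Ltb, a lymphotoxin, at 2.61 ± 1.13. Mean levels of the lymphoid list overlapped, at −4.20 and −3.77 in YFP-positive cells and −4.51, −5.50 and −4.19 in YFP-negative cells. The list medians at day 3 (−0.61) and day 7 (−0.33) had the opposite sign. None of these passed. The standard errors of Ptprc (2.60), Adgre1 and S100a8 rest on the spread within every group of the model, at all days. They therefore do not show how far the arrays of this contrast alone differed in genes of blood cells. The part of these cells in the other differences was not tested.

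Hepatocyte genes were present in both fractions although the cells were non-parenchymal. Alb, serum albumin, had levels of 5.03 and 4.19 in YFP-positive cells and 4.62, 4.61 and 3.29 in YFP-negative cells, a difference of 0.44 ± 0.62. Of 22 genes 7 were higher and 15 lower, and the median of −0.96 changed sign in 2 of 16 settings. By the authors' deposited table, 11 were higher and 11 lower, with a median of 0.04. Hal, histidine ammonia lyase, had −7.50 and −9.72 in YFP-positive cells and 0.01, −0.31 and −2.06 in YFP-negative cells, and Cyp1a2, a cytochrome of pericentral hepatocytes, differed by −3.03 ± 1.21. Hal differed by −7.83 ± 2.01 (limma, adjusted p = 0.237), a size that rests in part on a value assigned to the dim spot of YFP-positive array 2. Afp, the fetal liver marker, had overlapping levels and differed by 2.34 ± 1.53.

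Erythroid genes were lower for 8 of 12 with a median of −1.03 that changed sign in 3 of 16 settings. Hba-a1, a hemoglobin chain, had levels of 4.98 and 1.19 in YFP-positive cells and 6.02, 6.20 and 1.69 in YFP-negative cells, which overlapped. Ppbp, the platelet basic protein, was above background on 2 of 3 YFP-negative arrays and on neither YFP-positive array. With the YFP-positive arrays set to their lowest signal well above background, Ppbp was 2.64-fold lower. That value is not a lower bound, because not every YFP-negative array was above background. In the list of nerve sheath genes 7 of 8 were higher, with 1 higher and 1 lower at an unadjusted p under 0.05, and S100b, a calcium-binding protein, differed by 2.32 ± 0.75.

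Heme and redox genes, which DDC is known to disturb, held more members lower than higher. Of 27, 6 were higher and 21 lower with a median of −0.33, and 1 was higher at an unadjusted p under 0.05. Gpx2, an epithelial glutathione peroxidase, had levels of −0.15 and −1.64 in YFP-positive cells, against −3.42, −4.45 and −2.54 in YFP-negative cells, a difference of 2.58 ± 0.94. Hmox1, heme oxygenase, differed by −0.63 ± 1.01. Slc7a11, a cystine transporter named after its values were seen, had levels of −10.02 and −8.92 in YFP-positive cells, where neither array was well above background, and −2.22, −8.78 and −2.13 in YFP-negative cells, where 2 were. With the YFP-positive arrays set to their lowest signal well above background, Slc7a11 was 9.64-fold lower in YFP-positive cells. The test used the assigned values instead (limma, adjusted p = 0.457). The 9.64-fold value is not a lower bound, because the −8.78 of YFP-negative array 2 was itself assigned to a dim spot. Among cell cycle genes 20 of 25 were higher with a median of 0.35 that reached 0 in 2 of 16 settings, with the replicate block and without YFP-negative array 3. By the authors' deposited table, 11 were higher and 14 lower, with a median of −0.08. Mki67 differed by 0.30 ± 0.67, Cdc20 by 1.30 ± 0.60 and Aurkb by −2.85 ± 1.08, with only 1 of 2 YFP-positive arrays well above background for Aurkb. Immediate early and stress genes had a median of 0.13, the same as all genes, which changed sign in 1 of 16 settings, and Fos differed by 0.11 ± 0.68.

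The day 3 and day 7 contrasts share no arrays with the day 14 contrast, although the spread behind the day 14 p-values was estimated over all 20 arrays. The shares below are therefore given as a description. Of the 2158 genes higher at day 14 at an unadjusted p under 0.05, 92.2% were higher at day 3 and 82.9% at day 7, against 57.1% and 50.2% of all genes. Of the 1118 lower genes, 76.7% were lower at day 3 and 78% at day 7, against 42.9% and 49.8% of all genes. Across all genes the day 14 differences correlated with those of day 3 at 0.51 (Pearson) and 0.53 (Spearman), and with those of day 7 at 0.40 and 0.38. Genes are not independent replicates, and these values describe the arrays.

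The epithelial lists had like medians at all 3 days, with 2.37, 2.30 and 2.82 at days 3, 7 and 14 for the biliary list and 2.63, 2.2 and 2.98 for the junction list. Motile cilium genes had medians of 0.81, 0.59 and 1.46. Krt19 differed by 3.23, 3.81 and 3.34 at days 3, 7 and 14, and Foxj1 by 3.86, 4.31 and 4.32. The mesenchymal lists had medians of −2.42, −1.76 and −4.06 for fibroblast matrix and −1.39, −1.81 and −2.58 for stellate genes. Col1a1 differed by −3.30, −2.47 and −9.08, and Rspo1 by −1.72, −0.14 and −7.29.

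Whether the contrast changed between days was tested as a difference of differences. No gene passed for day 14 minus day 3 (limma, 0 of 26665, with 761 or 2.85% at an unadjusted p under 0.05) or for day 14 minus day 7 (0, with 939 or 3.52%). The wider mesenchymal gap at day 14 is thus a description of the values. Of the 26 matrix genes, 4 differed from day 3 and 7 from day 7 at an unadjusted p under 0.05. For Rspo1 the day 14 contrast was lower than that of day 7 by −7.14 ± 1.52 (limma, unadjusted p = 0.000275). For Gdf9, a growth factor known from oocytes, it was −7.10 ± 1.51 against day 3 and −7.19 ± 1.55 against day 7. Gdf9 had levels of −7.20 and −5.79 in YFP-positive cells at day 14, against −1.24, −1.14 and −0.33 in YFP-negative cells. Among the genes with the smallest p-values for day 14 minus day 3 were Il11 at 4.30 ± 0.90, Hdx at 8.56 ± 2 and Nop16, a nucleolar protein, at 2.53 ± 0.63 on the positive side, and Dzank1 at −6.76 ± 1.54 and Ripor2 at −5.03 ± 1.18 on the negative side. For day 14 minus day 7 they were Treh, the enzyme trehalase, at 5.99 ± 1.41, Gprin1 at 7.37 ± 1.70 and Hpcal4 at 5.15 ± 1.23, with Spata9 at −5.33 ± 1.16 on the negative side. For Rspo1, Hdx, Dzank1, Ripor2, Treh, Gprin1, Hpcal4 and Spata9 at least 1 of the 5 day 14 arrays was not well above background. Of the 2 other probes of Dzank1, 1 had the same sign in the day 14 contrast.

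**Figure D4:**
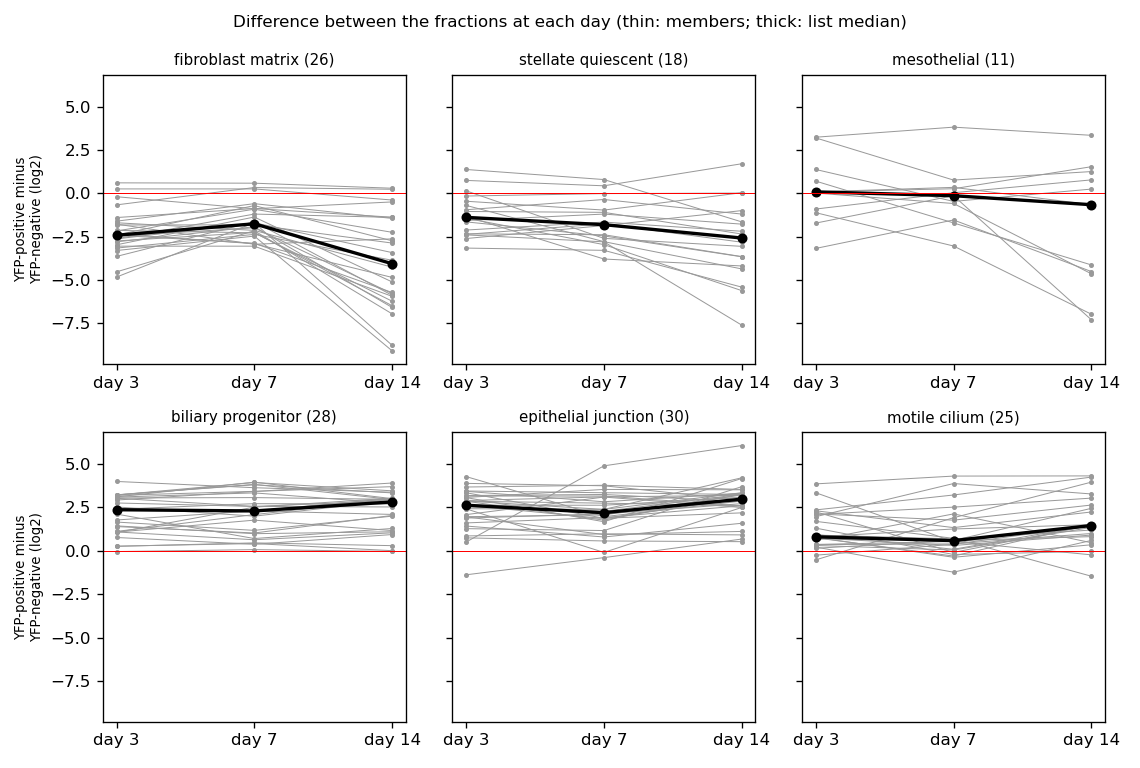
Difference between the fractions (YFP-positive minus YFP-negative, log2) at days 3, 7 and 14 for the members of 6 lists as thin lines, with the list median as a thick line. The biliary and junction medians stay between 2.2 and 2.98, and the fibroblast matrix median is −2.42, −1.76 and −4.06 at days 3, 7 and 14.

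In the authors' deposited table, each group is set against day 0, and the ratio of its YFP-positive to its YFP-negative day 14 fold change was taken for comparison. That log2 ratio correlated with the difference of the present fit at 0.92 across 26455 genes, and 88.9% of the signs were the same. It was −5.73 for Epha3, −7.42 for Rspo1 and −2.61 for Plcb1 in the authors' deposited table, and 3.32 for Krt19. How its groups were summarised is not stated, so it may include the third YFP-positive sample.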

How the data were processed

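Per the labels, RNA was extracted with Trizol and RNeasy, amplified with a NuGEN Ovation Pico kit and labelled with Cy3. The deposited 1-colour Agilent scanner files give the processed signal as an intensity from which the software took the background, with surrogate values where a spot was dim and no scaling across arrays, per the file headers. The headers name Feature Extraction 10.5.1.1 and the submitters' processing notes name 9.53. The deposited table of the authors holds a score, the signed linear fold change against day 0, with no method stated, and served only for comparison.

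Control and outlier spots were left out. Log2 signals were scaled to the 75th percentile of each array, probes well above background on at least 2 of the 20 arrays were kept, and the brightest of 39615 probes stood for each of 26665 genes. All 7 groups entered 1 linear model (limma 3.58.1, R 4.3.3, 13 residual and 2.32 prior degrees of freedom), with Benjamini-Hochberg adjustment over all genes and a threshold of 0.05. Bounds used the lowest signal well above background. Array number limits precision. Symbols came from RefSeq by accession (16250), symbol (2388) or synonym (707), and 7320 names had no match. The fit was tested on simulated data.

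The members and the 26 lists (506 genes, 6 not measured) were chosen with earlier results of these data known. Named were 15 genes each way, past the threshold or else with the smallest p, whose fractions did not overlap and whose higher fraction had no array below background, the first member of each list and up to 4 of its members with the smallest unadjusted p, read as under 0.05, 3 genes each way per day difference, and those said to be chosen later. Clone identifiers were not named. The results of some genes that this rule would name are not reported here. Alternatives were the normalization, background, scaling, filter, probe choice, arrays in the fit, slide, replicate number, array weights and each day 14 array left out.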

Additional observations from a re-analysis of the deposited data

How the results depend on the processing

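The count of 6 genes at day 14 was 0 after quantile normalization, 0 after normexp background correction, 1 with the mean of all probes of a gene, 1 with the slide as a random block, 0 with the replicate block and 29 with array weights, and without 1 array it ran from 0 to 48. Without YFP-negative array 2 it was 2. It was 6 with median scaling, without the filter on dim probes, with probes well above background on all arrays of a fraction and with the day 14 arrays alone, though only 1 of these last 6 was among the first 6. With the slide as a fixed block, which rests on slide differences seen in other groups, it was 5, with 1 shared. Normexp moved the median of all genes to 0.49, against 0.13. Same-numbered arrays of the fractions had deviations that correlated between −0.24 and 0.39, and differently numbered arrays between −0.28 and 0.28. With 2 YFP-positive arrays at day 14 the deviations of these arrays mirror each other. The correlations therefore cannot decide whether the numbers pair the samples. For day 14 minus day 3 the count of 0 was 1 under normexp and 0 to 1 without 1 array. For day 14 minus day 7 it was 2 with probes well above background on all arrays of a fraction, 2 with the slide as a fixed block, 2 with the slide as a random block and 0 to 5 without 1 array. The cause of these moves was not tested.

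For the 118 named genes, 1976 of 2004 values under alternatives kept their sign, and 28 turned, all among genes with no difference past the threshold. The turned values were, with a fixed slide block, 0.57 for Adgre1, 0.10 for Hba-a1, 0.93 for Hmox1, 1.33 for Ptprc, 1.21 for S100a8 and 1.17 for Tgfb1, and a random slide block turned Tgfb1 (0.04). Under normexp they were 0.15 for Ppbp, 0.62 for Shh and 0.37 for Tgfb1, and with the mean of all probes −1.81 for Acta2. With the replicate block Alb and Mki67 were at 0, and the authors' deposited table gave −0.08 for Mki67. Leaving out 1 array gave ranges of −2.17 to 0.59 for Adgre1, 0 to 0.86 for Alb, −1.31 to 0.12 for Axin2, −0.19 to 0.51 for Fos, −3.45 to 0.35 for Hba-a1, −0.14 to 1.05 for Mki67, −1.34 to 1.71 for Shh and −0.82 to 0.54 for Tgfb1.

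The list medians kept their sign in all 16 settings for fibroblast matrix (−4.55 to −2.96), stellate (−3.18 to −1.60), biliary (2.09 to 3.33), epithelial junction (2.40 to 3.81), motile cilium (0.72 to 1.82), endothelial (−1.68 to −0.30), mesothelial (−1.18 to −0.03) and lymphoid genes (0.62 to 1.86).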
